A study of Mus musculus with 24 samples.

Results

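The 10 genes described here are the hypoxia-inducible factor subunits Hif1a and Epas1, the prolyl hydroxylase genes Egln1 and Egln3, and 6 genes of the hypoxia type, Vegfa, Adm, Car9, Bnip3, Ndrg1 and Kdm3a. They were chosen by gene name on the array, which gave 17 of 56605 gene probes: 3 for Hif1a, 4 for Vegfa, 2 each for Car9 and Kdm3a, and 1 for each of the others. All 17 passed a filter on dim probes that kept 39036 probes and 25955 genes. The arrays measured mouse macrophages grown from bone marrow for 6 days in 20 ng/ml M-CSF, a cytokine on which these cells depend. One genotype, here KO, carried the floxed glucose transporter gene Slc2a1 (GLUT1) together with Cre recombinase driven from the myeloid LysM locus, and the other, here WT, is labelled as wild type or floxed control. Cells of each genotype were kept for 24 h without stimulus (M0), with LPS at 5 ng/ml plus IFNγ at 10 ng/ml (M1), or with IL-4 at 10 ng/ml (M2), with 4 replicates in each of the 6 groups. All groups had the same M-CSF culture conditions. No oxygen treatment is named in the labels, so the genes are hypoxia-type by their known regulation and not by an exposure in this study.

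As background, HIF-1α and HIF-2α, the products of Hif1a and Epas1, are transcription factor subunits whose protein is marked for destruction by oxygen-dependent prolyl hydroxylases and the VHL ubiquitin ligase. When hydroxylation slows, the subunits pair with ARNT and bind short response elements near genes for vessel growth, glycolysis, pH control and removal of mitochondria. In macrophages, LPS raises Hif1a through NF-κB also at normal oxygen, and the factor takes part in the switch to glycolysis after inflammatory activation. An array reads RNA only, so it does not show the amount or activity of either factor protein.

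The short element that HIF dimers recognise has the core ACGTG or GCGTG. RefSeq promoter sequences (GRCm38.p6) were held for 8 of the 10 genes, with 11 start sites. Of these sites 8, with at least 1 for each gene, had a core on either strand within the 250 bases before the start, as did 38.6% of all 32851 promoters in the same window. ACGTG was found in 16.6% and GCGTG in 28.2% of all promoters. The 140 bases before the start are shown for 1 factor gene and 4 target genes that behaved differently in M1, with every core of either strand in capitals (CACGT and CACGC are the cores read on the other strand, and overlapping cores run together). They lie at chr12:73907727-73907866 (plus strand, Hif1a), chr7:110627517-110627656 (plus, Adm), chr4:43506886-43507025 (plus, Car9), chr7:138909507-138909646 (minus, Bnip3) and chr6:71632918-71633057 (minus, Kdm3a).
Hif1a: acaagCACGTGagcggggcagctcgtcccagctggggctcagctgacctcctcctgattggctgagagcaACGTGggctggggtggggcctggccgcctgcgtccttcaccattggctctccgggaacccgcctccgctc
Adm: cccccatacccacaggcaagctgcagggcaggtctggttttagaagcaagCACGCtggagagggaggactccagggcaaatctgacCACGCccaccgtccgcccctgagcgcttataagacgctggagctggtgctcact
Car9: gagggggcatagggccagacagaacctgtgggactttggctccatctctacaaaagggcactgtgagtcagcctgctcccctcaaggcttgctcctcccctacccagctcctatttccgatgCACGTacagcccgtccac
Bnip3: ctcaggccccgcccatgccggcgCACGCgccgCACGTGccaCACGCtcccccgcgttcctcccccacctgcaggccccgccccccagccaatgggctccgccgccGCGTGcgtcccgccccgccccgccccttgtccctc
Kdm3a: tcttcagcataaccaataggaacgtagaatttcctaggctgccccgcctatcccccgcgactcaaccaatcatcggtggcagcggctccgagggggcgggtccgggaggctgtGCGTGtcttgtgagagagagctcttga
Bnip3 had 5 cores in the 250-base window, Hif1a 3, and Egln1 and Adm 2 each. In Bnip3 and Hif1a the stretch CACGTG is counted as 2 cores, 1 on each strand. Car9 had 1, which begins 18 bases before the start, and Egln3 had 1, which begins 229 bases before it and so outside the stretch shown for the others. At Vegfa the 2 cores stood before 1 of 2 listed starts, and at Kdm3a the 1 core stood before 1 of 3. A match of letters is a description of the sequence and not a measured binding site.

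Values are log2 intensities relative to the 75th percentile of the gene probes of each array, called the level, and differences are log2 differences of group means ± SE. A difference counts as called where limma's Benjamini-Hochberg adjusted p over all 25955 genes was under 0.05, and the brightest probe stands for a gene unless a probe is named. The 75th percentile ranged from 1504 to 2973 intensity units over the 24 arrays, and 53.1% to 71.4% of gene probes were well above background. It was lowest in KO M1, at 1504 to 1705 units, against 1810 to 2364 in WT M1, and the part of this in the results was not tested. The arrays filled 3 slides and fall into 4 sets, each holding 1 array of every group. The 4th set stands apart: the Y-linked Ddx3y, Eif2s3y and Uty were well above background on 0 of its 6 arrays and on 18 of the other 18, and Xist on 6 of 6 against 2 of 18, while Kdm5d, also Y-linked, was well above background on 6 of 6 and 18 of 18. Calls of members that turn on it are given with and without it. Lyz2, the gene at the LysM locus that carries Cre, was lower in KO by 3.36 ± 0.21 averaged over the states (adjusted p = 7.07e-09). The array's Slc2a1 probe differed by -0.33 ± 0.35 in M0 (adjusted p = 1) and by 0.25 ± 0.35 in M1 (adjusted p = 0.584), and whether it lies in the deleted part was not analysed here. All 8 macrophage markers were well above background on every array.

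The main pattern in the 10 genes was an M1 response in both genotypes and a difference between the genotypes that was called in M1 and in no other state. In M1, 7 of the 10 were called between KO and WT, 6 higher in KO (Hif1a, Epas1, Vegfa, Adm, Ndrg1 and Kdm3a) and 1 lower (Car9). Across all genes 43.9% were called in that comparison, 22.7% higher and 21.2% lower. No member was called between the genotypes in M0, where 0.0539% of genes were, or in M2, where 0.0424% were. At an unadjusted p under 0.05 the counts were 0 in M0 and 1 in M2, the 1 being Ndrg1. The median difference of the members in M1 was 0.96, against 0.13 for all genes. With quantile normalization the median of all genes in this comparison moved from 0.13 to -0.05, and the same 7 members plus Bnip3 were called. The share of all genes called with that scaling is not given here, so this count is not set against it.

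**Figure D1:**
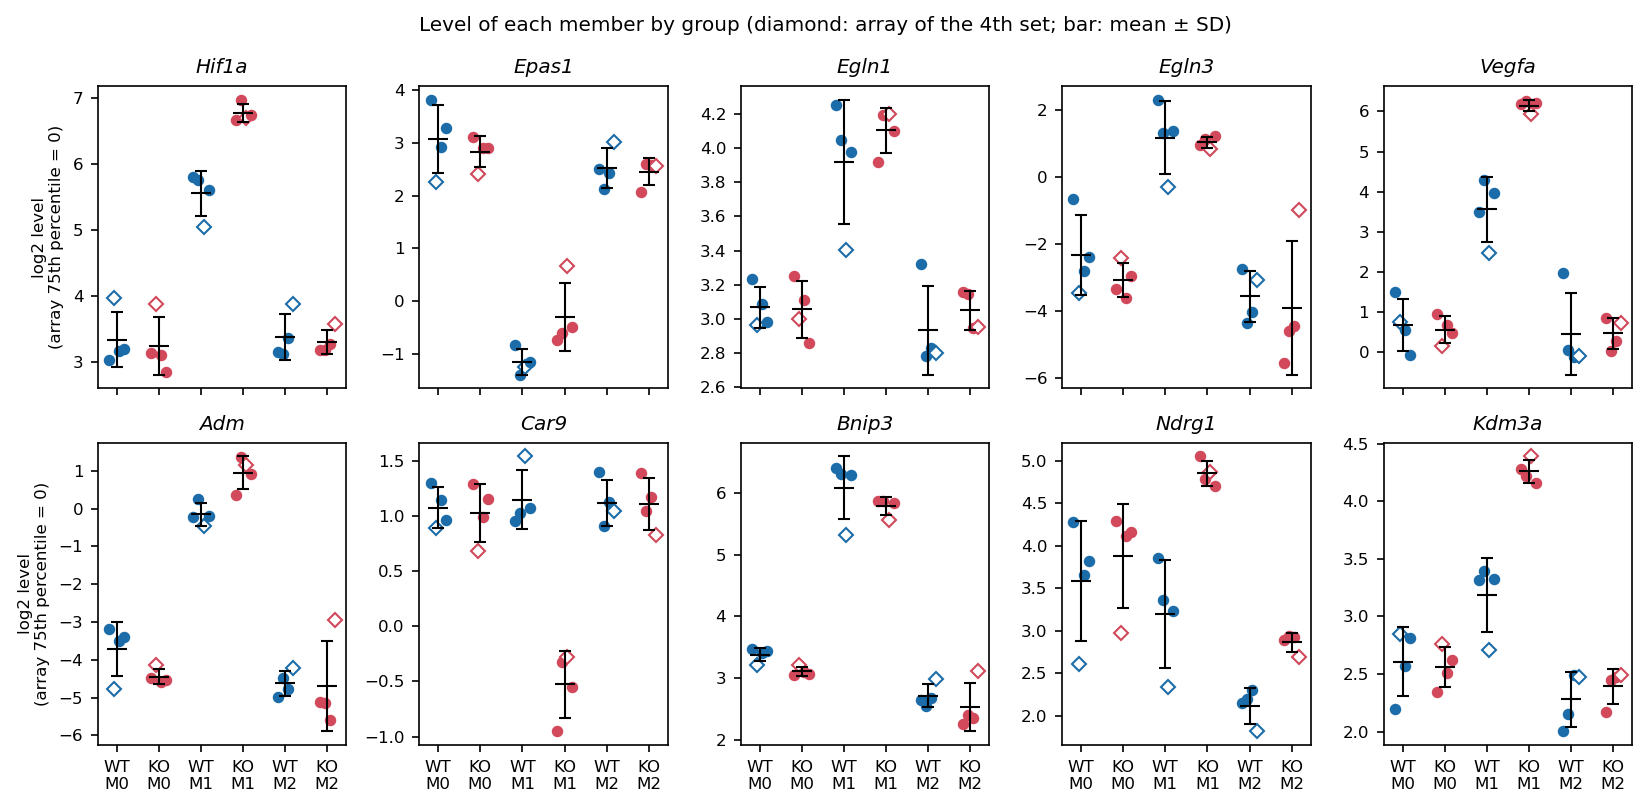
Log2 level of each of the 10 genes (y axis, 0 is the array's 75th percentile) in the 6 groups (x axis), 1 point per array, with the 4 arrays of a group side by side, WT in blue and KO in red, open diamonds for the 4th set and black bars for mean ± SD (n = 4). Hif1a, Vegfa, Ndrg1 and Kdm3a are highest in KO M1, Car9 is lowest there, and Epas1 is low in M1 of both genotypes.

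Hif1a encodes the subunit of HIF-1 that oxygen controls. The WT arrays of M0 had levels of 3.04, 3.97, 3.17 and 3.20, the KO arrays of M0 3.15, 3.87, 3.11 and 2.86. For M1 the WT levels were 5.80, 5.76, 5.05 and 5.60 and the KO levels 6.67, 6.97, 6.70 and 6.75. All M1 arrays lay above all M0 arrays, and the 4 KO M1 arrays lay above the 4 WT M1 arrays, a separation seen for 43.3% of all genes. M2 levels were 3.15, 3.13, 3.37 and 3.88 (WT) and 3.18, 3.19, 3.27 and 3.57 (KO), which overlap M0. The gene rose from M0 to M1 by 2.21 ± 0.23 in WT (4.63-fold, adjusted p = 1.16e-07) and by 3.52 ± 0.23 in KO (11.5-fold, adjusted p = 7.37e-11). Calls were common in both comparisons, 47.8% of all genes in WT and 56.4% in KO. In M1 it was 2.33-fold higher in KO (1.22 ± 0.23, adjusted p = 0.000186). An exact permutation test of the 8 arrays gave the smallest p that 70 splits allow, 0.0286 (two-sided). Groups of 4 arrays that do not overlap always give this value, so it adds nothing to the separation. The response itself was larger in KO by 1.31 ± 0.33 (adjusted p = 0.00382), in a comparison that called 29.8% of genes, though this call was lost with quantile normalization (0.83, adjusted p = 0.093) and with the mean of the gene's probes (1.03, adjusted p = 0.0936). Within the sets the difference in M1 was 0.87, 1.21, 1.14 and 1.65.

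One of the 3 Hif1a probes reads the minus strand, at chr12:75027538-75027597 on mm9, whereas the others read the plus strand of the gene. Its sequence is shown because a signal from it would come from the opposite strand.
A_66_P107191: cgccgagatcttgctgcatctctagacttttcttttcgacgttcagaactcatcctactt
This probe was well above background on all 24 arrays, with mean levels of -3.57 (WT M0), -1.71 (WT M1) and -0.63 (KO M1). It was higher in KO M1 than WT M1 by 1.08 ± 0.26 and rose in WT M1 by 1.86 ± 0.26, as the brightest probe did (47.8% of probes were called there), but the difference of the responses was not called (0.80 ± 0.38, adjusted p = 0.127, with 3 KO M0 arrays since 1 spot was an outlier), among 30.3% of probes called. The plus-strand probe A_55_P2149011 was dim, well above background on 19 arrays, and differed by 1.78 ± 0.51 between KO and WT in M1 (adjusted p = 0.00678).

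Epas1 encodes HIF-2α and moved the other way. M0 levels were 3.82, 2.27, 2.92 and 3.28 on the WT arrays and 3.11, 2.42, 2.90 and 2.90 on the KO arrays. In M1 the WT arrays read -0.82, -1.39, -1.24 and -1.15 and the KO arrays -0.74, -0.60, 0.66 and -0.49. No M1 array reached the lowest M0 array. In M2 the levels ran from 2.13 to 3.02 in WT and from 2.07 to 2.61 in KO. From M0 to M1 it fell by 4.22 on the log2 scale in WT (± 0.30, 18.6-fold, adjusted p = 7.09e-10) and by 3.13 in KO (8.73-fold, adjusted p = 2.23e-08), and in WT 99.2% of all genes had a higher difference. It was 1.81-fold higher in KO M1 than in WT M1 (0.86 ± 0.30, adjusted p = 0.0275). Within the sets this difference was 0.08, 0.78, 0.65 and 1.90, with the largest in the 4th set. Without that set it was 0.51 and no longer called (adjusted p = 0.0639), as without WT M1 replicate 2 or 3 or KO M1 replicate 3 (adjusted p = 0.073, 0.0567 and 0.124). The difference of the responses was 1.09 ± 0.43 (adjusted p = 0.0628). With the replicate number as a block it was called (adjusted p = 0.0487), but these numbers mark different sets in different states. With the set as a block it was not called. Without the 4th set it was called (0.87, adjusted p = 0.0383). Hif1a and Epas1 thus moved in opposite directions from M0 to M1 in both genotypes. Their probes differ, so no level of one is set against the other.

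**Figure D2:**
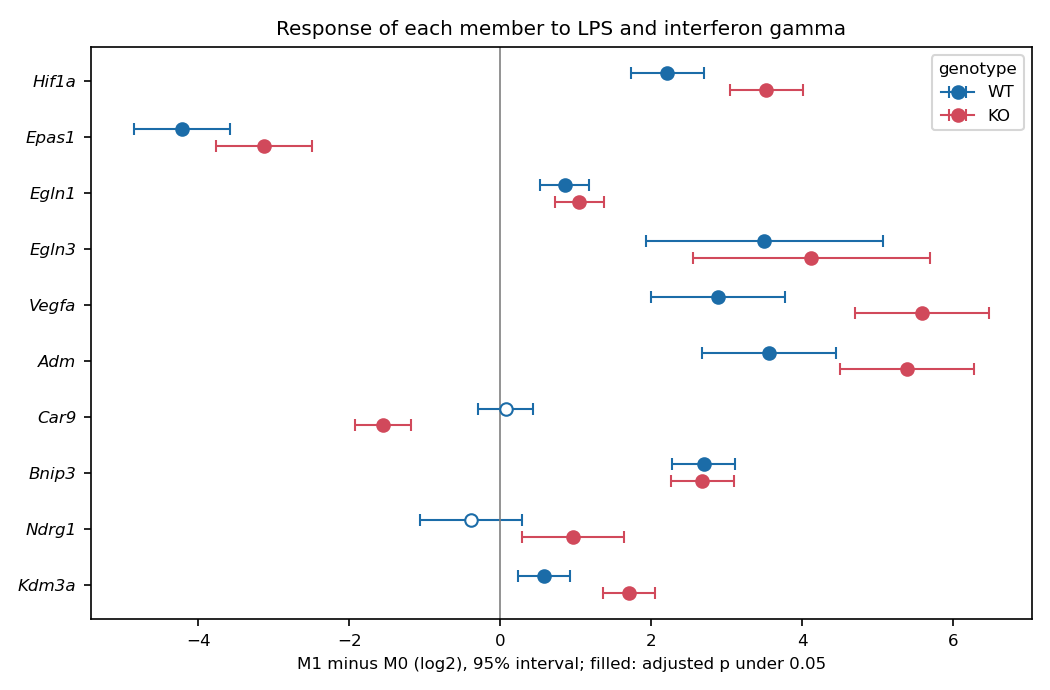
Difference between M1 and M0 (x axis, log2, 95% interval) of each gene (y axis) in WT (blue) and KO (red), with filled points where adjusted p was under 0.05. Vegfa and Adm lie near 3 to 4 in WT and above 5 in KO, Bnip3 near 2.7 in both, and Car9 and Ndrg1 are called in KO and not in WT.

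The hydroxylase genes rose in M1 without a called difference between the genotypes. Egln1, which encodes PHD2, the main oxygen sensor of HIF-1α, went from 3.23, 2.97, 3.09 and 2.98 on the WT M0 arrays to 4.25, 4.05, 3.40 and 3.98 on the WT M1 arrays. The KO arrays read 3.25, 3.00, 3.11 and 2.86 in M0 and 3.92, 4.19, 4.20 and 4.10 in M1. Every M1 array lay above every M0 array of its genotype. It rose 1.81-fold in WT (0.85 ± 0.15, adjusted p = 0.000107) and 2.07-fold in KO (1.05 ± 0.15, adjusted p = 6.34e-06), and KO minus WT in M1 was 0.18 with a 95% interval of -0.14 to 0.51 (adjusted p = 0.358). Its levels in M2 spanned 2.78 to 3.32 in WT and 2.95 to 3.16 in KO.

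Egln3, which encodes PHD3, was the member with the widest spread. The WT arrays had -0.63, -3.44, -2.81 and -2.39 in M0 and 2.32, 1.32, -0.30 and 1.39 in M1, and the KO arrays -3.34, -2.42, -3.60 and -2.94 in M0 and 0.96, 1.16, 0.85 and 1.22 in M1. The M2 arrays had -2.74, -4.35, -4.03 and -3.07 in WT and -5.54, -4.59, -4.44 and -0.99 in KO, where 2 of the 4 arrays measured it well above background. M1 arrays lay above M0 arrays in both genotypes, in WT by a narrow margin. It rose 11.3-fold in WT (3.50 ± 0.75, adjusted p = 0.000628) and 17.4-fold in KO (4.12 ± 0.75, adjusted p = 8.59e-05). The genotypes differed in M1 by -0.14 with an interval of -1.71 to 1.44 (adjusted p = 0.903), which leaves room for a change of more than 2-fold either way. Within the sets that difference was -1.36, -0.16, -0.17 and 1.15, and the 4th set had the opposite sign to set 1 in the other states too, with 1.02 against -2.70 in M0 and 2.08 against -2.80 in M2. Without the 4th set the average over the states was -1.02 and called (adjusted p = 0.0163), against -0.41 (adjusted p = 0.52) with it.

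Vegfa, the gene for vascular endothelial growth factor A, showed the largest difference between the genotypes in M1 among the 10 genes. On WT arrays the levels were 1.48, 0.74, 0.54 and -0.08 for M0 and 3.50, 4.29, 2.46 and 3.96 for M1, against 0.94, 0.14, 0.68 and 0.47 and 6.18, 6.26, 5.93 and 6.21 on KO arrays. The KO M1 arrays lay close together and all above the highest WT M1 array. In M2 the levels were 1.96, 0.05, -0.13 and -0.09 in WT and 0.85, 0.01, 0.27 and 0.73 in KO. It rose 7.39-fold in WT M1 (2.88 ± 0.43, adjusted p = 1.05e-05) and 48.1-fold in KO M1 (5.59 ± 0.43, adjusted p = 6.6e-10). In M1 it was 6.03-fold higher in KO (2.59 ± 0.43, adjusted p = 3.9e-05), and 1.51% of all genes had a difference that was higher. The exact permutation p was 0.0286, the smallest possible, which the separation of the groups fixes. The difference of the responses was 2.70 ± 0.60 (adjusted p = 0.00156). By set the M1 difference was 2.68, 1.97, 2.24 and 3.47, and without the 4th set it was 2.3 (adjusted p = 0.00104).

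All 4 Vegfa probes were called in the same direction in M1, among 45.3% of all probes called. The dimmest of them lies at chr17:46159226-46159282 on mm9 (minus strand) and, from general knowledge of the gene and not from an annotation used here, codes for a stretch of the basic heparin-binding part that shorter splice forms leave out. Its sequence is given for that reason.
A_55_P2741794: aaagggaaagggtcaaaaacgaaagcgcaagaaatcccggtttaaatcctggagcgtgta
It differed between KO and WT in M1 by 2.44 ± 0.79 (adjusted p = 0.0157), with -1.51, -0.83, -2.25 and -1.15 in WT and 0.43, 1.85, 0.12 and 1.61 in KO, so the groups did not overlap. It was well above background on 20 of 24 arrays, and its difference of responses was not called (1.93 ± 1.12, adjusted p = 0.218). The brighter probe A_51_P482552 differed by 3.06 ± 0.43.

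**Figure D3:**
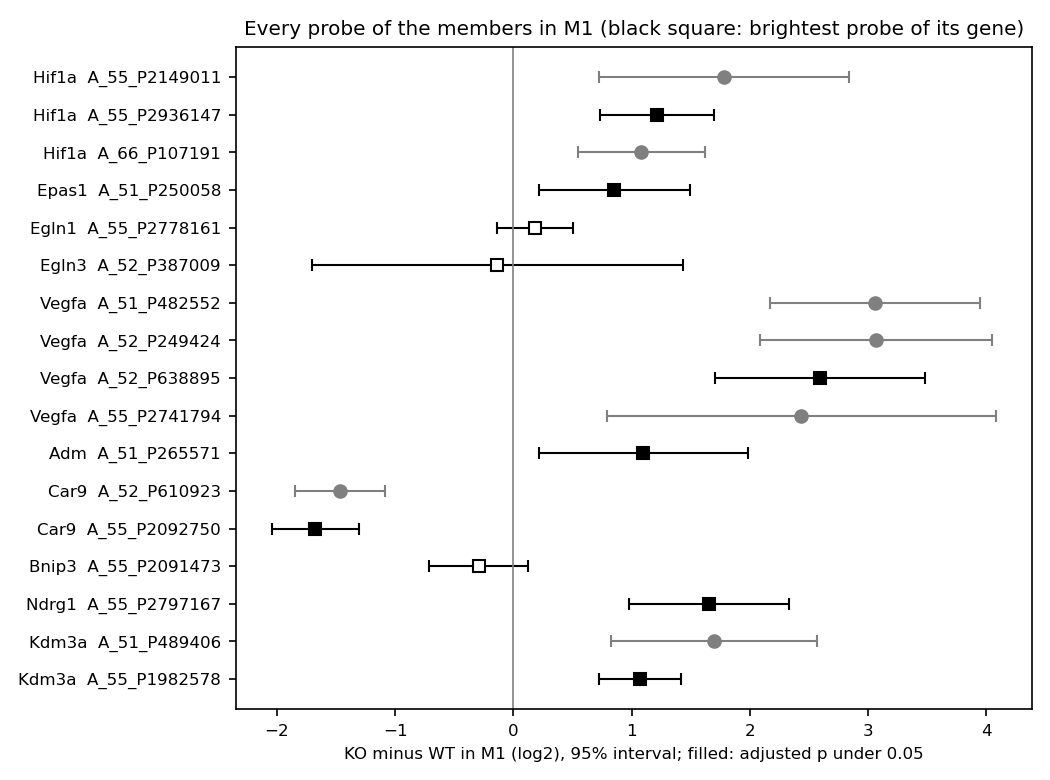
Difference between KO and WT in M1 (x axis, log2, 95% interval) for each of the 17 probes (y axis), with a black square for the brightest probe of a gene, grey circles for the others and filled marks where adjusted p over all probes was under 0.05. The 4 Vegfa probes lie between 2.44 and 3.07, the 3 Hif1a probes between 1.08 and 1.78, and both Car9 probes below 0.

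Adm encodes adrenomedullin, a secreted peptide that widens vessels. Levels in M0 were -3.18, -4.77, -3.49 and -3.41 (WT) and -4.49, -4.14, -4.60 and -4.55 (KO), and those in M1 were -0.22, 0.25, -0.45 and -0.20 (WT) and 0.35, 1.35, 1.17 and 0.91 (KO). All M1 arrays lay above all M0 arrays, and the lowest KO M1 array lay 0.35 above the percentile against 0.25 for the highest WT M1 array. In M2 the KO arrays read -5.12, -5.15, -5.60 and -2.95, of which 2 were well above background, and the WT arrays ran from -4.98 to -4.22. It rose 11.8-fold in WT (3.56 ± 0.43, adjusted p = 7.21e-07) and 42.0-fold in KO (5.39 ± 0.43, adjusted p = 1.06e-09). In M1 it was 2.14-fold higher in KO (1.1 ± 0.43, adjusted p = 0.0416), a call that was lost without WT M1 replicate 1, 3 or 4 or KO M1 replicate 2, 3 or 4 (adjusted p = 0.0681 to 0.109) while the difference stayed between 0.96 and 1.11. Without the 4th set it was 0.93 and called (adjusted p = 0.00313). The responses differed by 1.83 ± 0.60 (adjusted p = 0.0249). That call was lost without WT M0 replicate 1 or KO M1 replicate 2 (adjusted p = 0.0549 and 0.0518). The value includes a difference of -0.73 ± 0.43 in M0 that was not called. Within the sets that M0 difference was -1.32, -1.11, -1.14 and 0.62. Without the 4th set it was -1.19 and not called (adjusted p = 0.095).

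Car9 encodes carbonic anhydrase IX, a membrane enzyme that acidifies the outside of hypoxic cells, and was the 1 member called lower in KO M1. WT arrays had 1.3, 0.89, 1.15 and 0.96 in M0 and 0.96, 1.02, 1.54 and 1.07 in M1, which overlap. The KO arrays read 1.29, 0.68, 0.99 and 1.15 in M0 and -0.95, -0.33, -0.28 and -0.55 in M1. In M2 the levels were 0.91 to 1.4 in WT and 0.83 to 1.39 in KO. In WT the M1 response was 0.07 ± 0.18 (adjusted p = 0.774, interval -0.29 to 0.44), and in KO the gene fell by 1.56 on the log2 scale (2.94-fold, adjusted p = 1.81e-07). KO and WT in M1 differed 3.20-fold (-1.68 ± 0.18, adjusted p = 1.18e-07) and by -1.91, -1.35, -1.62 and -1.82 in the sets. The second probe gave -1.46 ± 0.18. This difference was called under every alternative run, with adjusted p from 4.07e-08 to 6.44e-06.

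Bnip3 encodes a mitochondrial protein that directs mitochondria to autophagy. The WT arrays had 3.47, 3.22, 3.41 and 3.43 in M0 and 6.41, 6.30, 5.32 and 6.28 in M1, and the KO arrays 3.06, 3.22, 3.11 and 3.06 in M0 and 5.87, 5.87, 5.56 and 5.84 in M1. It rose 6.48-fold in WT (2.70 ± 0.20, adjusted p = 1.07e-09) and 6.38-fold in KO (2.67 ± 0.20, adjusted p = 5.03e-10), and the responses differed by -0.02 with an interval of -0.61 to 0.57. In M1 the 4th set separates from the others. KO minus WT was -0.53, -0.43 and -0.44 in sets 1 to 3 and 0.24 in the 4th, where the WT array was the low one of its group. With all arrays the difference was -0.29 ± 0.20 (adjusted p = 0.254), and without the 4th set it was -0.47 and called (adjusted p = 0.000126). With quantile normalization it was -0.70 and called (adjusted p = 0.00849). In M0 the KO arrays lay below the WT arrays, though the highest KO and the lowest WT array both round to 3.22, a separation seen for 2.15% of all genes, and the difference of -0.27 ± 0.20 was not called. In M2 it fell in WT by 0.67 relative to M0 (1.59-fold, adjusted p = 0.0282), a comparison with 15.1% of genes called, and in KO the value was -0.58 ± 0.20 (adjusted p = 0.0628). The WT call was lost without WT M0 replicate 1, 3 or 4 or WT M2 replicate 1, 2 or 3 (adjusted p = 0.0574 to 0.0786). The KO value was called with the replicate number as a block (adjusted p = 0.0421) but not with the set as a block. It was also called, at -0.74, without the 4th set.

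Ndrg1 encodes a stress-induced cytoplasmic protein linked to differentiation. On WT arrays the levels were 4.28, 2.61, 3.65 and 3.82 for M0 and 3.85, 3.36, 2.34 and 3.24 for M1, against 4.29, 2.97, 4.11 and 4.16 and 5.05, 4.79, 4.86 and 4.70 on KO arrays. WT M1 overlapped WT M0, while KO M1 lay above both. In WT the M1 response was -0.39 ± 0.32 (adjusted p = 0.348), and in KO the gene rose 1.96-fold (0.97 ± 0.32, adjusted p = 0.015). Without the 4th set the WT value was -0.43 and called (adjusted p = 0.045). The rise in KO was lost with quantile normalization (0.48, adjusted p = 0.213) and without KO M0 replicate 2 (0.66, adjusted p = 0.0765). In M1 it was 3.15-fold higher in KO (1.66 ± 0.32, adjusted p = 0.000262), by 1.2, 1.43, 1.47 and 2.53 in the sets. The responses differed by 1.36 ± 0.46 (adjusted p = 0.0289). That call was lost with quantile normalization (1.1, adjusted p = 0.0689) and without WT M0 replicate 1 or 4, KO M0 replicate 2, WT M1 replicate 3 or KO M1 replicate 1 (adjusted p = 0.0546 to 0.0697).

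In M2 the KO arrays of Ndrg1 read 2.90, 2.94, 2.93 and 2.70 and the WT arrays 2.15, 2.2, 2.3 and 1.82. The groups did not overlap, as for 2.35% of all genes, and the KO excess was 0.62 to 0.88 in every set, but the difference of 0.75 ± 0.32 was not called across all genes (adjusted p = 1). Relative to M0 the gene fell in M2 by 1.47 in WT (2.77-fold, adjusted p = 0.00355) and by 1.02 in KO (2.02-fold, adjusted p = 0.0429), where 13% of genes were called. It was the 1 member called in M2 of KO, and that call was lost with outlier spots kept (adjusted p = 0.0574), with the slide as a block (0.0597) and without any 1 of 13 single arrays. The M2 groups of each genotype did not overlap M0, as for 16.6% of genes in WT and 18.5% in KO.

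Kdm3a encodes a histone H3 lysine 9 demethylase. Levels in M0 were 2.19, 2.85, 2.57 and 2.81 (WT) and 2.35, 2.76, 2.51 and 2.62 (KO), and those in M1 were 3.32, 3.40, 2.71 and 3.33 (WT) and 4.28, 4.22, 4.39 and 4.16 (KO). The KO M1 arrays lay above all others, and 1 WT M1 array, of the 4th set, lay among the M0 arrays. In M2 the levels ran from 2.0 to 2.49 in WT and from 2.17 to 2.49 in KO. It was 2.1-fold higher in KO M1 (1.07 ± 0.16, adjusted p = 1.69e-05), by 0.96, 0.82, 0.83 and 1.68 in the sets, and its second probe differed by 1.70 ± 0.42 (adjusted p = 0.0022). The rise in WT M1 was 0.58 ± 0.16 (adjusted p = 0.00593), but the second probe gave -0.04 ± 0.42 (adjusted p = 0.947), and an exact two-sided permutation test on the brightest probe gave p = 0.0857. With quantile normalization that rise was 0.39 and not called (adjusted p = 0.0747). Within the sets it was 1.12, 0.83, 0.52 and -0.14, and without the 4th set it was 0.82 and called (adjusted p = 0.000445). The second probe gave 0.44, 0.35, -0.03 and -0.93 within the sets. The response in KO was 1.70 ± 0.16, larger than in WT by 1.12 ± 0.23 (adjusted p = 0.000831).

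**Figure D4:**
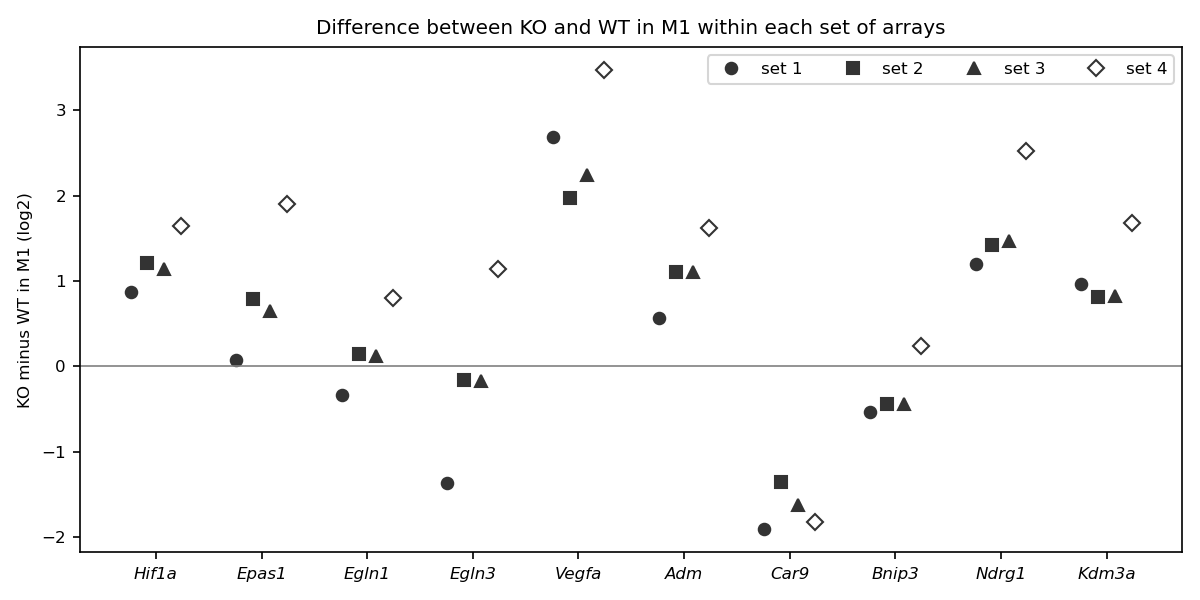
Difference between KO and WT in M1 (y axis, log2) for each gene (x axis) within each of the 4 sets of arrays, 1 array of each genotype per point, with open diamonds for the 4th set. Hif1a, Vegfa, Adm, Ndrg1 and Kdm3a are above 0 and Car9 below 0 in every set, while Egln1, Egln3 and Bnip3 change sign between sets.

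Counted over the comparisons, 8 members were called in M1 against M0 in WT (7 higher, Epas1 lower), where 25.9% of all genes were called higher and 21.9% lower. In KO 10 were called (8 higher, Epas1 and Car9 lower), where 32.9% were called higher and 23.5% lower. M0 and M1 did not overlap for 7 members in WT, as for 45.2% of all genes, and for 10 in KO, as for 51.2%. M1 against M2 gave 9 in WT, where 47.8% of genes were called, and 10 in KO, where 57.2% were. These share their M1 arrays with the comparisons against M0. The difference of the M1 response between genotypes called 6 members, 5 larger in KO (Hif1a, Vegfa, Adm, Ndrg1 and Kdm3a) and 1 smaller (Car9), with 15% of all genes called larger and 14.8% smaller. Averaged over the 3 states, KO minus WT called 4 members (Vegfa, Ndrg1, Kdm3a and Car9) and 28.7% of all genes. The Vegfa average, 0.83, was 0.70 and not called without the 4th set (adjusted p = 0.0607). The Bnip3 average, -0.25 (adjusted p = 0.117), was -0.37 and called without that set (adjusted p = 2.38e-05). The Hif1a average, 0.35, was not called with no block. It was called with the set as a block, with the replicate number as a block (adjusted p = 0.0442) and without the 4th set (0.33, adjusted p = 0.00144). In M2 against M0 the count was 2 in WT and 1 in KO, all lower, where 8.82% and 6.19% of all genes were called lower, with a member median of -0.44 in WT and -0.21 in KO against -0.09 and -0.06 for all genes. The difference of the M2 response between the genotypes called 0 members and 0% of all genes, also with 0 members at an unadjusted p under 0.05. The 4 replicates are labelled as separate replicates with no statement on animals, so p-values measure the spread between these cultures. With no block, that spread includes the differences between the sets.

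Across the 24 arrays the levels of Hif1a, Vegfa, Adm, Egln1, Egln3 and Bnip3 moved together, with Pearson correlations from 0.84 (Egln3 and Vegfa) to 0.96 (Adm and Bnip3) between pairs of them. These arrays share 6 group means, and within groups the same pairs ranged from -0.01 (Hif1a and Vegfa) to 0.80 (Egln3 and Bnip3). Epas1 ran opposite, at -0.88 with Hif1a, and Car9 stood at -0.76 with Hif1a and -0.87 with Kdm3a. As a description over the same 24 arrays and among 15002 candidate genes (named genes with a value on every array), the genes most like Hif1a were Slamf7 (r = 0.99), Whamm and Sp140, and those most like Epas1 were Aspm, Pimreg and Knl1 (r = 0.97 each). Egln1 was followed by Met (0.97), Hilpda (0.96) and Tent4a, Egln3 by Pfkl (0.95), P4ha2 and P4ha1, and Adm by Pfkl (0.97), Marchf5 and Fam71f2. For Vegfa the nearest were Vps37a, Eif1 and Suco (0.97 each), for Car9 Rpusd3 (0.98), Eif4e3 and Bcl2l12, and for Bnip3 Parp12 (0.99), Tor1aip1 and Etnk1. Ndrg1 was followed by Cyb5r1, Slc9b2 and Osbp2 (0.92 each), and Kdm3a by Chaserr (0.99), Bcl7b and Kctd6.

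Around the 10 genes, the pathway's other parts were counted from lists. Each count stands beside the share of all genes called in the same comparison, 22.7% higher and 21.2% lower for KO against WT in M1 and 25.9% and 21.9% for M1 against M0 in WT. Of 19 HIF partners, hydroxylases and regulators tested, 5 rose and 3 fell in KO M1 relative to WT M1, and 11 did not pass. Siah2, a ubiquitin ligase that acts on the prolyl hydroxylases, was higher by 1.53 ± 0.15, Rack1, which promotes HIF-1α breakdown, by 1.19 ± 0.13, and Hsp90aa1, a chaperone that protects it, by 0.92 ± 0.34. Cited2, a rival of HIF for its coactivators, was lower (-1.3 ± 0.18), and the coactivator Ep300 differed by -0.66 ± 0.13. The number of falls depended on the scaling, and with quantile normalization 5 rose and 7 fell. From M0 to M1 in WT, 9 rose and 2 fell, among them Vhl, the ligase subunit that binds hydroxylated HIF (1.23 ± 0.13), Cul2 (1.36 ± 0.13) and Hif3a, which was well above background on 1 of 4 WT M0 arrays. The median in KO minus WT was 0.07, near the 0.13 of all genes.

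A list of 14 genes that act on HIF-1α in inflamed macrophages through NF-κB, STAT3, PI3-kinase and mTOR, succinate or PKM2 gave 3 higher and 5 lower in KO M1, against 22.7% and 21.2% of all genes, with Pik3cd, a PI3-kinase subunit, at -2.23 ± 0.16, the mTOR activator Rheb at 0.77 ± 0.14 and the IκB kinase Ikbkb at -0.61 ± 0.10. The 4 succinate dehydrogenase subunits, named after their values were seen, make up 4 of the 8 calls, with Sdha at 0.25 ± 0.10, Sdhb at -0.35 ± 0.10, Sdhc at -0.41 ± 0.14 and Sdhd at -0.56 ± 0.10. In WT M1, 7 rose and 0 fell, against 25.9% and 21.9% of all genes, led by Acod1, which makes itaconate, at 8.88 ± 0.70, and by Stat3 at 1.64 ± 0.26. The list's median between the genotypes was -0.14.

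Of 8 other genes of the VEGF family tested, 3 were higher and 2 lower in KO M1 than in WT M1. Across all genes 22.7% were higher and 21.2% lower. Of the 2 that were lower, Vegfd was well above background on 0 of 4 KO M1 arrays. Kdr, the main VEGF-A receptor, was higher by 2.44 ± 0.36, the ligand Vegfb by 2.0 ± 0.17, and the co-receptor Nrp1 was lower (-2.0 ± 0.23). Kdr had itself risen in WT M1 by 3.70 ± 0.36, while Vegfb had changed there by -2.32 ± 0.17. Kdr is also a marker of endothelial cells, and the summed linear level of 5 endothelial markers was 5.81 to 11.4 in KO M1 and 1.09 to 2.72 in WT M1. Among the 5, Tek and Emcn were well above background on 0 of 8 M1 arrays, and Cdh5 had mean levels of -3.81 in WT M1 and -3.99 in KO M1. The neutrophil markers, 10 genes, summed to 73.1 to 187 in KO M1 and 21.3 to 76.8 in WT M1, the 5 dendritic cell markers to 62.2 to 89.5 and 31.6 to 61.8, and the 5 mast cell and basophil markers to 1.36 to 3.54 and 0.384 to 0.844. These sums are carried by few genes: S100a9 had mean levels of 3.83 in WT M1 and 6.08 in KO M1, Siglech 5.60 and 6.33, and Tpsb2 -0.79 and 0.40. Most other neutrophil markers were also higher in KO M1: S100a8 (3.27 and 4.49), Ltf (0.59 and 2.57), Camp (-0.36 and 1.92), Ngp (-1.64 and 0.72), Mpo (-4.31 and -2.77) and Elane (2.99 and 3.29). The dim Retnlg (-6.78 and -5.57) was higher too. The neutrophil markers Ly6g (2.53 in WT M1, -0.22 in KO M1) and Mmp8 (0.69 and 0.55) and the dendritic cell marker Zbtb46 (-0.55 and -2.21) were lower in KO M1. The part of these cells in the differences was not tested. In bulk samples fewer cells of a type and less RNA per cell cannot be told apart.

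Of the adrenomedullin system, 2 of 6 tested were higher in KO M1 than in WT M1 and 0 were lower. The 2 were the receptor accessory protein Ramp1 (1.37 ± 0.28) and the receptor Calcrl (0.76 ± 0.26). From M0 to M1 in WT, Ramp3 rose by 6.60 ± 0.79, while Ramp1 (-4.99 ± 0.28) fell, as did Ramp2, which was well above background on 1 of 4 WT M1 arrays. Among 11 other carbonic anhydrases, Car13 (1.25 ± 0.15) and Car1 (0.73 ± 0.23) were higher in KO M1 than in WT M1. The mitochondrial Car5b was lower, being well above background on 0 of 4 KO M1 arrays and on 4 of 4 WT M1 arrays. Without the 4th set 4 of the 11 were higher in KO M1. In WT M1 Car2 rose by 4.32 ± 0.62. For mitophagy, the difference KO minus WT in M1 was called positive for 3 of 9 other genes and negative for 3. The receptor Optn led at 3.95 ± 0.19, and with quantile normalization 1 gene was called positive. The level of Optn was 0.02 ± 0.19 (SD, n = 4) in WT M1 and 3.97 ± 0.03 in KO M1. Of 5 relatives of Ndrg1 and Kdm3a, 0 were higher and 1 lower in KO M1 than in WT M1, the demethylase-related Jmjd1c (-0.81 ± 0.11).

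Other hypoxia-type targets outside glycolysis, 45 tested, split almost evenly in KO M1, with 13 higher and 11 lower and a median of -0.01. The largest were the nuclear receptor Rora (3.71 ± 0.20), the clock repressor Bhlhe40 (3.12 ± 0.40) and the chemokine receptor Cxcr4 (3.1 ± 0.25). In WT M1, 25 rose and 10 fell, with the inducible nitric oxide synthase Nos2 at 10.17 ± 0.45 and Ak4 at 4.41 ± 0.52 among them. Of the glycolytic targets, 16 of 22 rose and 2 fell in WT M1 relative to WT M0, against 25.9% and 21.9% of all genes. Pfkfb3 (3.78 ± 0.27), Slc16a3 (3.53 ± 0.28) and Slc2a1 (2.94 ± 0.35) were in the lead. In KO M1, 4 were higher and 6 lower than in WT M1. Eno2 (3.33 ± 0.22) and Hk2 (1.93 ± 0.21) were higher and Aldoc lower (-2.29 ± 0.38). So 6 of the 10 members, 13 of the 45 other targets and 4 of the 22 glycolytic targets were higher in KO M1, against 22.7% of all genes, and the members include genes chosen with earlier results known.

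**Figure D5:**
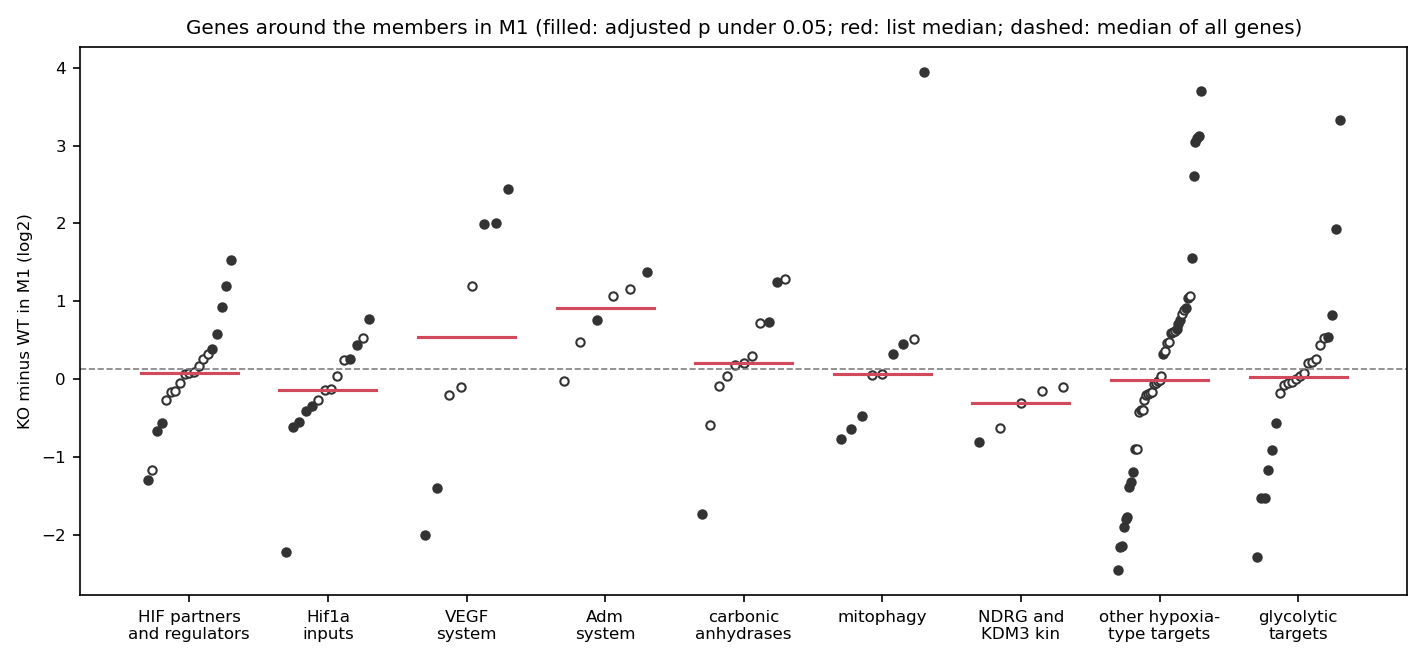
Difference between KO and WT in M1 (y axis, log2) of every tested gene in 9 lists around the members (x axis), filled where adjusted p was under 0.05, with a red bar at the list median and a dashed line at the median of all genes, 0.13. Other hypoxia-type targets lie on both sides of 0 with a median of -0.01, and Optn (3.95) and Rora (3.71) are the highest points.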

How the data were processed

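One-colour Agilent arrays, 24 in number, measured RNA labelled with Cy3 by a low-input kit, per the labels' protocols. The deposited values are spot intensities on a linear scale with background subtracted and spatial trend removed. The file headers name version 10.7.3.1 of Agilent's extraction software and the submitters' processing notes 9.1. Arrays were not scaled to each other in them, and coordinates are those of mm9. The authors' value table was not used here. Outlier spots were left out, spots of a probe averaged, and log2 intensities taken relative to each array's 75th percentile. Probes well above background on at least 4 arrays were kept.

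Group means were fitted in limma 3.58.1 under R 4.3.3 over all genes, 6 groups and no block, with Benjamini-Hochberg adjustment, and over all probes likewise. On simulated data for KO minus WT in M1 over 25955 genes, 82 of 100 genes changed by 2 on the log2 scale and 48 of 100 changed by 1 were recovered. There, 8 unchanged genes were also called, and the simulated arrays varied independently. Far fewer genes were changed than the 43.9% called in the data, so these rates do not give the power of the real comparison. Within a state, same-numbered WT and KO arrays deviated together: all 12 correlations of their deviations were over 0.1, from 0.17 to 0.847, and they are the arrays of 1 set. Numbers mark different sets in different states. The sets were read from slide places.

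Alternatives were quantile normalization, normexp background correction (offset 50), other probe filters and summaries, blocks, and leaving arrays out. Further alternatives were chosen after seeing the data: list counts under other settings, and the set as a block without the 4th set. The members and lists were chosen with earlier results of these data known. The 10 members were always named. From each list at most the 3 called genes (6 for HIF regulators) of largest difference in a comparison were named, and the 3 genes of highest correlation with each member. Number of arrays limits the precision. A list gene that the naming rule would add and a probe sequence are not reported here.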

Additional observations from a re-analysis of the deposited data

Results flagged for a closer look

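In groups of 4 arrays, 9 of 60 had 1 value far from the other 3, where chance alone flags about 1 in 20. Of these, 5 were arrays of the 4th set: Bnip3 was low at 5.32 in WT M1 (others 6.28 to 6.41) and at 5.56 in KO M1 (others 5.84 to 5.87) and high at 3.11 in KO M2 (others 2.26 to 2.4), Kdm3a was low at 2.71 in WT M1 (others 3.32 to 3.40), and Ndrg1 was low at 2.97 in KO M0 (others 4.11 to 4.29). The other 4 were arrays of set 1 in M2: Vegfa was high at 1.96 in WT (others -0.13 to 0.05), Egln1 was high at 3.32 in WT (others 2.78 to 2.83), and in KO Epas1 was low at 2.07 and Kdm3a at 2.17.

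The M1 response differed between the genotypes, by the test of the difference itself, in Vegfa by 2.70, Adm by 1.83, Ndrg1 by 1.36, Hif1a by 1.31, Kdm3a by 1.12 and Car9 by -1.63. Across all genes 29.8% were called in this comparison. The calls of Hif1a, Ndrg1 and Adm were lost in some alternative runs, where limma's adjusted p reached 0.0936, 0.0697 and 0.0549.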

How the results depend on the processing

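Between the genotypes in M1, Vegfa, Car9, Kdm3a, Hif1a and Ndrg1 kept their call and direction under every alternative run, with adjusted p at most 0.00104, 6.44e-06, 0.000315, 0.0152 and 0.00144. No called value of the 10 genes changed sign. The count of members called in M2 against M0 moved most. In KO, 1 member was called, and the count was 2 with quantile normalization, with probes well above background on all 24 arrays, with the replicate number as a block and with a trended robust prior, 0 with outlier spots kept, 3 without the 4th set and 4 with the set as a block and without the 4th set. In WT, 2 were called, and 5 in both settings without the 4th set. Without that set, Epas1 (-0.98, adjusted p = 0.00532), Egln3 (-1.76, adjusted p = 0.0269) and Adm (-1.39, adjusted p = 0.000664) were called lower in WT M2. With all arrays their values were -0.55, -1.23 and -0.91 (adjusted p = 0.263, 0.313 and 0.171). Adm in KO M2 was -0.74 and called without that set (adjusted p = 0.0377), against -0.26 (adjusted p = 0.76) with all arrays. Averaged over the states, 4 were called, and 7 with the set as a block and without the 4th set. The shares of all genes called without the 4th set are not given for this average or for M2 against M0 in KO. Those member counts are therefore not set against all genes. Leaving out single arrays gave 0 to 2 in M2 against M0 in KO, 1 to 3 in WT, and 5 to 7 between the genotypes in M1. The replicate block changed 3 calls of members, those of the Hif1a average, of Bnip3 in M2 of KO and of the Epas1 response, all to called. The set as a block changed 1, that of the Hif1a average (adjusted p = 0.0351), also to called. Over all genes, 14 were called between the genotypes in M0 (22 with quantile normalization, 6 with probes well above background on all arrays, 24 without the 4th set) and 11 in M2 (4 with those probes, 28 with the set as a block, 60 without the 4th set and 122 with both). M2 against M0 gave 3914 in WT (6507 with the set as a block, 5872 without the 4th set) and 3371 in KO (6360 with no filter, 5899 with the set as a block). The cause was not tested. Egln3 and Adm were well above background on 2 of 4 arrays in KO M2, which limits them there.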
